A study of Mus musculus with 73 samples.

Results

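The Hox genes of the 4 mouse clusters were examined in RNA from single mouse embryos at embryonic day 6.5, dissected into epiblast and extraembryonic ectoderm (ExE). The members were 38 named Hox genes, taken by symbol from the table of 30546 genes. Of the 38 members, 34 had a row in the table, and Hoxa2, Hoxa13, Hoxc11 and Hoxc12 had none and were not analysed here. Of the 34, 33 had at least 1 read in the 72 libraries, Hoxd4 had 0 reads, 8 of the 34 (Hoxd4 included) had fewer than 20 reads over all libraries, and 16 had more than 100. On mm10 the members with a row lay in HoxA at chr6:52169062-52245810 (8 of 10 members), HoxB at chr11:96194361-96368254 (10 of 10), HoxC at chr15:102921131-103036856 (7 of 9) and HoxD at chr2:74668310-74765142 (9 of 9).

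The embryos were hybrids of BDF1 (itself a cross of C57BL/6 and DBA) and CAST, a wild-derived strain. Wild-type embryos came from both directions of the cross, mother named first: BDF1xCAST (7 epiblast and 7 ExE libraries), made by intracytoplasmic sperm injection, and CASTxBDF1 (4 and 4), from natural mating. Knockouts were made in BDF1xCAST zygotes by injection of Cas9 mRNA with several guide RNAs against Dnmt1, the maintenance DNA methyltransferase (3 epiblast and 3 ExE libraries), against Ehmt1 and Ehmt2 together, the histone H3 lysine 9 methyltransferases named G9a-Glp in the labels (6 and 8), against Rnf2, the ubiquitin ligase of Polycomb repressive complex 1, PRC1 (6 and 5), and against Eed, a core subunit of Polycomb repressive complex 2, PRC2 (9 and 10). An embryo edited as a zygote can carry several mutant alleles and is no clonal line, and the edited sequence of each embryo was not analysed here. All knockouts had a BDF1 mother and a CAST father, so parent of origin and strain cannot be told apart in them. Embryos were not pooled, and where both tissues of an embryo were sequenced each is a library of its own. In Eed the embryo label and the number that opens the title pair the same tissues for embryos 1 to 6 but not for the later ones, and the embryo label was used.

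Hox genes encode homeodomain transcription factors that give cells their position along the head-to-tail axis. The genes of a cluster are numbered by paralogue group: groups 1 to 3 (anterior) act in the hindbrain and neck, groups 4 to 8 (central) in the trunk, and groups 9 to 13 (posterior) in the lumbar region, tail, limbs and genital tract. They switch on in that order, starting in the posterior primitive streak during gastrulation. Before that, the clusters are covered by histone H3 trimethylated at lysine 27, the mark of PRC2, and by H2A ubiquitin, the mark of PRC1.

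Many Hox promoters are CpG islands, the class of promoter that Polycomb complexes bind, and the promoters of 4 members that the results turn on are printed here to show how far they differ in CG content. The 250 bases before the RefSeq transcription start (GRCm38.p6) are given 5′ to 3′ on the gene's own strand, in lower case with each CG dinucleotide in capitals. Hoxd13 (chr2:74667975-74668224, plus strand) held 31 CG, Hoxd9 (chr2:74697513-74697762, plus strand) 13, Hoxd1 (chr2:74762730-74762979, plus strand) 24 and Hoxa9 (chr6:52227371-52227620, minus strand) 3.
Hoxd13: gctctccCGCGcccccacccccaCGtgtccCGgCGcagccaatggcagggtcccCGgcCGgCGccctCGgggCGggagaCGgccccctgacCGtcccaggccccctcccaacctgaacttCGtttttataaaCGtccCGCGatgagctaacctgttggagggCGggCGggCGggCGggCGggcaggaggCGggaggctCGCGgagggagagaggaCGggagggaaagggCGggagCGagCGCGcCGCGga
Hoxd9: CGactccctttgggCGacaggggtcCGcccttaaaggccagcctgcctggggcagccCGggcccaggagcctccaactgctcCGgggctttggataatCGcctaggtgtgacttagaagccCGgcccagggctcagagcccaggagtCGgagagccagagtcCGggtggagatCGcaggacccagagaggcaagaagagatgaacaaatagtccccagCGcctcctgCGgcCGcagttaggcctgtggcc
Hoxd1: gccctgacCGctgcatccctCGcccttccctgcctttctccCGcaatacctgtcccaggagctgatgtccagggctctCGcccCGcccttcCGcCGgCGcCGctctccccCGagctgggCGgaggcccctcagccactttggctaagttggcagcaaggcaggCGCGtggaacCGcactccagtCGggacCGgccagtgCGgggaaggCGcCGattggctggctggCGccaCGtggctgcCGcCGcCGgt
Hoxa9: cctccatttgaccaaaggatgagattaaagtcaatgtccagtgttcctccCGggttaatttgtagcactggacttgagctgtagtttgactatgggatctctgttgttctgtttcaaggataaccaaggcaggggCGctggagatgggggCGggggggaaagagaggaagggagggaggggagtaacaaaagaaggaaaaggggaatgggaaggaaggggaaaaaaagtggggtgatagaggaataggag
RefSeq entries were matched for 22 of the 38 members, with 24 promoters in all. These held a median of 12.5 CG (range 2 to 35), against 6 over the 32851 promoters of the table, and 19 of the 24 lay above that median. The median GC content was 58.6% for the member promoters and 52.4% over all promoters. At least 1 CG was found in 92.134% of all promoters of this length, and as many as in the Hoxd13 promoter in 5.19%, as in Hoxd1 in 11.98%, as in Hoxd9 in 31.54% and as in Hoxa9 in 70.97%. The CG dinucleotide reads the same on both strands, and overlapping CGs do not occur.

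Each value is a count of reads over positions that differ between BDF1 and CAST, with both alleles summed, and CPM is that count scaled to the library's total of such reads. A gene's count therefore depends on how many such positions it carries, and levels are compared within a gene and not between genes. Total reads per library were 1311863 to 3028267 in wild-type BDF1xCAST epiblast and 2685835 to 3053690 in ExE, 1421066 to 3500256 and 2116969 to 3976031 for Eed, and 5549733 to 17653087 and 1847681 to 10263280 for Rnf2, so Rnf2 epiblast was the most deeply sequenced of these groups. Eed mRNA was at 9.38 ± 5.59 CPM in Eed epiblast (SD, n = 9) against 157 ± 54.5 in the wild type (n = 7), and at 7.94 ± 4.08 (n = 10) against 201 ± 50.1 in ExE. Rnf2 mRNA fell in Rnf2 epiblast (26.5 ± 6.42 against 45.3 ± 9.58 CPM, edgeR adjusted p = 0.00800), but in ExE the adjusted p was 0.317, and all 5 libraries labelled Rnf2 (29.6, 22.4, 39.5, 62.7 and 21.9 CPM for embryos 2, 4, 5, 6 and 7) lay inside the wild-type range of 21.4 to 65.9. Dnmt1 mRNA fell in Dnmt1 epiblast (8.02 ± 3.35 CPM, n = 3, adjusted p = 0.000560), but in ExE it was at 47.9, 34.5 and 5.16 CPM against 35.7 to 62.2 in the wild type (adjusted p = 0.137). In G9a-Glp epiblast Ehmt1 did not pass (4.14 to 50.5 against 14.5 to 39.8 CPM, adjusted p = 0.263), Ehmt2 was at 3.07 ± 1.43 (n = 6) against 3.07 ± 2.27 CPM (edgeR without the filter, adjusted p = 0.955), and in ExE both Ehmt1 and Ehmt2 fell (adjusted p = 0.0200 and 0.000750). A small deletion or insertion can disrupt a protein without lowering its mRNA, so these levels are only a partial check of the labels. Epiblast markers summed to 3505 to 5779 CPM (median 3996) in wild-type epiblast, 3707 to 5661 (4489) in Eed and 2097 to 4414 (3215) in Rnf2. In the ExE libraries of these genotypes they summed to 499 to 1262. ExE markers summed to 41.3 to 258 in epiblast and 351 to 1191 in ExE. Pou5f1, which defines the epiblast, had at most 1.61 CPM in wild-type epiblast. Rnf2 epiblast embryo 8 had the lowest epiblast sum, and its 169 CPM of ExE markers lay inside the wild-type range. Among those markers, Elf5 was at 50.0 CPM, against at most 3.81 in wild-type BDF1xCAST epiblast.

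In wild-type embryos Hox reads were few, and most of those in the epiblast came from anterior genes. Summed over the members, wild-type BDF1xCAST epiblast had 7.23 ± 7.12 CPM (SD, n = 7; range 1.61 to 19.8) and ExE 1.04 ± 0.514 (n = 7; 0.358 to 1.79). The CASTxBDF1 libraries had 4.62 ± 3.50 in epiblast and 1.38 ± 0.769 in ExE (n = 4 each). Of 104 Hox reads in the BDF1xCAST epiblast, 84.6% came from paralogues 1 to 3, 1.92% from paralogues 4 to 8 and 13.5% from paralogues 9 to 13. Hoxb1, which gives rhombomere 4 of the hindbrain its identity and is among the earliest Hox genes of the streak, was the member with the most reads there (44). Its lowest, median and highest values were 0, 1.98 and 8.85 CPM. The wild-type epiblasts with the highest Hox sums, embryos 8 and 1 (19.8 and 14.3 CPM), had 1605 and 615 CPM of primitive streak markers. Embryo 6 had 1156 CPM of streak markers with a Hox sum of 4.35, and embryo 7 had 600 with 6.53. Embryos 2, 3 and 4 were lowest in both (48.2 to 145 CPM of streak markers, Hox sums of 1.61 to 2.31). Embryo 8 also had the most visceral endoderm marker reads (1268 CPM against 93.6 to 356 in the other 6). The part of these cells in the Hox values was not tested. In bulk tissue a smaller share of expressing cells and less RNA per cell cannot be told apart.

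**Figure D1:**
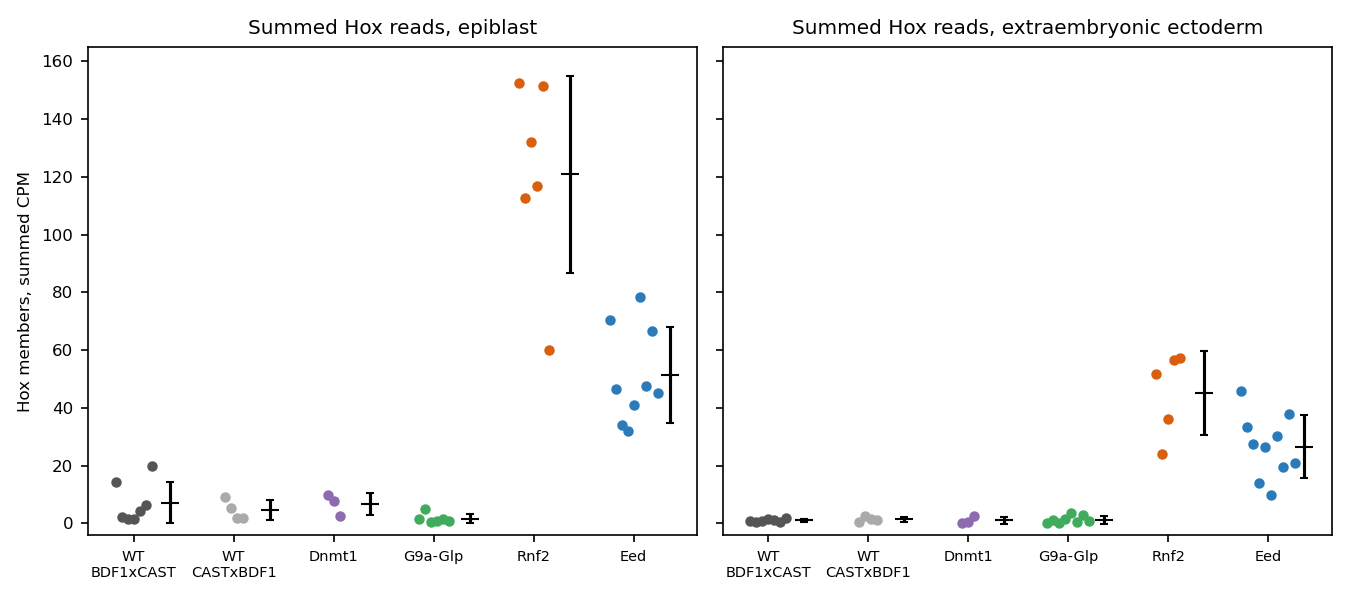
Summed reads of the Hox members in each library, in CPM, for epiblast (left) and ExE (right), with each point 1 library and bars giving the mean ± SD. The Rnf2 and Eed epiblast libraries (60.2 to 152 and 31.9 to 78.6) lie above the wild-type maximum of 19.8, and those of ExE (24.1 to 57.2 and 9.77 to 45.9) above the wild-type maximum of 1.79.

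Summed Hox reads were higher in both Polycomb knockouts, in both tissues, and no library of either overlapped with the wild type. The sum was 51.3 ± 16.6 CPM in Eed epiblast (SD, n = 9), 121 ± 34.1 in Rnf2 epiblast (n = 6), 26.6 ± 11 in Eed ExE (n = 10) and 45.2 ± 14.5 in the ExE libraries labelled Rnf2 (n = 5). The mix of reads is given as a description, with no test. In epiblast, posterior paralogues 9 to 13 gave 63.9% of 1169 Hox reads in Eed and 51.3% of 7059 in Rnf2, beside the 13.5% of the wild type. In ExE they gave 58.2% of 766 reads in Eed and 49.3% of 1687 in Rnf2, near the 52.38% of the 21 reads in the wild type. Paralogues 4 to 8 gave 14.7% and 31.3% in Eed and Rnf2 epiblast, and 24.0% and 41.0% in ExE, where the wild type had 19.05%. Paralogues 1 to 3 gave 21.4% and 17.4% in epiblast, and 17.8% and 9.72% in ExE, where the wild type had 28.57%. These shares weigh genes by their polymorphic positions, which are the same in every group.

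For the rest, 2 tests are given for each comparison, both with edgeR's quasi-likelihood model (two-sided, Benjamini-Hochberg adjustment over all genes tested, threshold 0.05). With edgeR's filter on low counts very few members could be tested, since the wild type has almost no Hox reads, and those that passed did so through the knockout libraries in which they are high. Their counts are therefore no support for a difference, and the test without the filter is given beside it. That test takes every member with a read in either group. Against the wild type these were from 7 members in Dnmt1 ExE to 33 in Rnf2 epiblast. In wild-type BDF1xCAST 11 members had a read in epiblast and 6 in ExE. Many members thus enter this test too only through knockout reads, and its counts share that limit.

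Hoxd13, Hoxa9 and Hoxd9 rose in the Eed epiblast, along with Hoxb7, Hoxb2 and other members. With the filter 2 members were tested and both were higher, Hoxd13 and Hoxa9, where 19.2% of all genes tested were higher. Without it, 9 of 26 members were higher and 0 lower, against 8.22% of all genes. By cluster these were 2 of 6 tested in HoxA, 2 of 6 in HoxB, 0 of 6 in HoxC and 5 of 8 in HoxD, and by class 1 of 6 anterior, 3 of 7 central and 5 of 13 posterior members. All 9 calls remained when each library was left out in turn.

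Hoxd13, which patterns the digits and the genital tract, was at 0 CPM in 4 of 7 wild-type epiblasts and at most at 0.843, while the 9 Eed epiblasts had a lowest, median and highest value of 11.2, 12.4 and 25.1. No Eed library overlapped with the wild type. The mean was 13.8 ± 4.40 against 0.275 ± 0.364 CPM (log2 difference 5.17 ± 0.46 SE, edgeR adjusted p = 3.53e-07). Hoxa9, a posterior gene also active in blood progenitors, had 0 reads in all 7 wild-type epiblasts and 1.95, 4.49 and 6.57 CPM (lowest, median, highest) in Eed. Against a floor of 3 reads over the wild-type group it was at least 24.9-fold higher (edgeR adjusted p = 1.80e-05). Here and below, such an "at least" value is the knockout mean divided by that floor. It leaves out the error of the knockout mean and is no confidence bound. Hoxd9, which acts in the lumbosacral spine and forelimb, likewise had 0 wild-type reads and 0.888, 3.58 and 9.68 CPM in Eed, at least 28.0-fold higher (edgeR without the filter, adjusted p = 2.33e-06).

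Hoxd11 and Hoxd10, limb genes of HoxD, had 84 and 79 reads in Eed epiblast, against 0 and 2 in the wild type. Their rows overlap on the genome and their counts ran almost in step over libraries (Pearson r = 0.991 over 72 libraries, as a description). They are therefore read as 1 signal. The counts of members given for every comparison, cluster and class still hold both, and are higher for it where both were called. Among central genes, Hoxb7, which acts in the thorax, was at 2 reads in the wild type and at 85 in Eed, a ratio of 32.6 (exact 95% interval 8.76 to 274, counting error only), with 1.60, 2.02 and 10.3 CPM as its lowest, median and highest values. Hoxa7, another thoracic gene, was found in 8 of 9 Eed epiblasts (at least 9.47-fold higher, edgeR without the filter, adjusted p = 0.00225) and Hoxd8 in 7 of 9 (at least 5.23-fold, adjusted p = 0.0160), both with 0 wild-type reads.

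Hoxb2, which acts with Hoxb1 in the hindbrain, was the 1 anterior member that rose. It had 0, 0.404 and 3.37 CPM (lowest, median, highest) in the wild type and 2.11, 4.15 and 9.07 in Eed, so the groups overlapped (edgeR without the filter, log2 difference 2.10 ± 0.59 SE, adjusted p = 0.00997). The row of LOC102632302 overlaps Hoxb2, the reads carry no strand, and the counts of the pair ran together (r = 0.977 over 72 libraries). Hoxb1 itself did not pass the test. Its mean was 1.21 ± 0.935 CPM in Eed and 3.01 ± 3.49 in the wild type (adjusted p = 0.190), and every Eed value lay inside the wild-type range. Hoxd1 (2.21 ± 2.44 against 0.977 ± 0.565 CPM) and Hoxd3 (1.86 ± 1.37 against 0.385 ± 0.587) did not pass either, with adjusted p = 0.336 and 0.0852.

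In the Rnf2 epiblast Hoxb7, Hoxd13 and Hoxb2 rose, along with members of every cluster. With the filter, 3 members were tested and all 3 were higher, Hoxb7, Hoxd13 and Hoxb2, where 18.0% of all genes tested were higher. Without it, 15 of 33 members were higher and 0 lower, against 7.38% of all genes: 3 of 8 in HoxA, 3 of 10 in HoxB, 2 of 7 in HoxC and 7 of 8 in HoxD, or 3 of 6 anterior, 4 of 14 central and 8 of 13 posterior members. Of the 15 calls, 13 remained when each library was left out in turn. Hoxc4 and Hoxd1 did not, with adjusted p of up to 0.0921 and 0.0881. Since the Rnf2 libraries were deeper, all libraries were also thinned to the depth of the shallowest, which left 13 of 27 members higher without the filter.

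Hoxb7 was at 0 CPM in 5 of 7 wild-type epiblasts and at most at 0.363. The 6 Rnf2 epiblasts had a lowest, median and highest value of 15.2, 26.1 and 32.9 CPM, a pooled ratio of 218 (exact 95% interval 60.4 to 1805, from 2 wild-type reads; edgeR adjusted p = 1.05e-07). Hoxd13 reached 11.2, 23.5 and 24.3 CPM in Rnf2 epiblast, and its mean was 21.5 ± 5.08 (log2 difference 6.04 ± 0.47 SE, edgeR adjusted p = 3.75e-07). All 6 libraries lay above every wild-type library for both genes. Hoxb2 was at 4.40, 7.77 and 9.19 CPM, above the wild-type maximum of 3.37 in all 6 (log2 difference 2.78 ± 0.56 SE, edgeR adjusted p = 0.00162).

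A further 4 members with 0 wild-type reads had a read in every Rnf2 epiblast at several CPM. Hoxd9 had a median of 8.46 CPM (1.56 to 13.3) and was at least 46.3-fold higher than the floor of 3 wild-type reads. Hoxa7 had 6.92 (3.02 to 18.6) and was at least 44.9-fold higher, and Hoxa9 had 7.09 (2.84 to 12.5) and was at least 40.5-fold higher. Hoxc10, which acts in lumbar motor neurons and the hindlimb, had 5.65 (1.99 to 9.46) and was at least 29.9-fold higher. The adjusted p of these 4, from edgeR without the filter, lay between 5.35e-08 (Hoxd9) and 1.26e-06 (Hoxc10).

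Among the remaining calls in Rnf2 epiblast, Hoxd10 and Hoxd11 again stood for 1 signal (5.00 ± 2.61 and 5.32 ± 2.64 CPM). Hoxd8 was at least 20.2-fold higher. Hoxa10, a gene of the lumbar spine and uterus, rose in 5 of 6 libraries above every wild-type value (0.142, 5.63 and 10.3 CPM as lowest, median and highest). Hoxd3, which shapes the atlas vertebra, had 5.06 ± 2.27 against 0.385 ± 0.587 CPM, and its row overlaps those of Hoxd3os1, Gm38462 and Hoxd4. Hoxb13, a gene of the tail tip and prostate, was found in all 6 Rnf2 epiblasts (0.923, 1.57 and 2.70 CPM) and in none of the 7 wild-type ones (at least 9.24-fold higher, edgeR without the filter, adjusted p = 0.00329). Hoxd1 had 4.15 ± 2.43 against 0.977 ± 0.565 CPM, and Hoxc4, which shares reads with Gm30528, 0.820 ± 0.864 against 0. Hoxa3, which acts in the third pharyngeal arch, had 2.36 ± 0.958 CPM against 0.653 ± 1.73 (adjusted p = 0.0934) and Hoxb1 1.65 ± 0.891 against 3.01 ± 3.49 (adjusted p = 0.564).

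**Figure D2:**
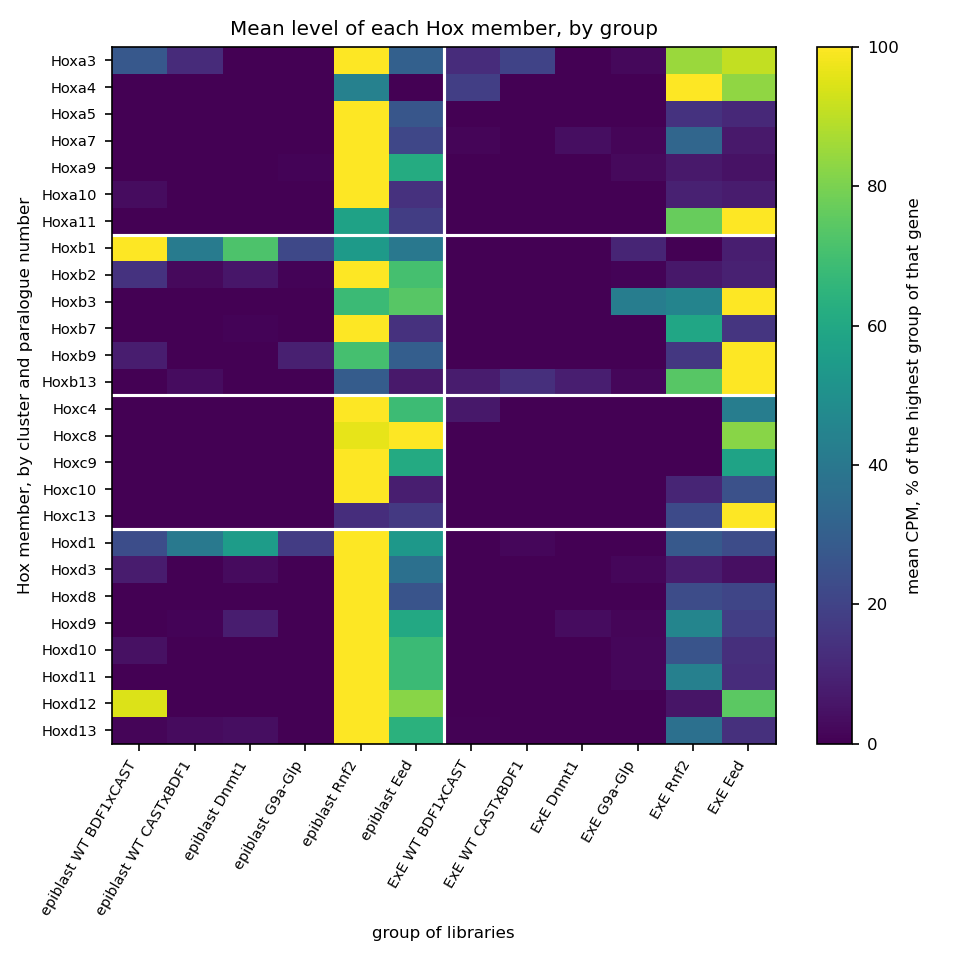
Mean level of the 26 Hox members with at least 20 reads over all libraries (rows, by cluster and paralogue number) in the 12 groups (columns), with the colour giving the mean CPM as a percentage of that gene's own highest group. Of the 26 members, 18 were highest in Rnf2 epiblast, 5 in Eed ExE and 1 each in Eed epiblast, Rnf2 ExE and wild-type BDF1xCAST epiblast, the last being Hoxb1.

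In the ExE, a trophoblast tissue with hardly any Hox reads in the wild type, the Eed knockout raised Hox genes of every cluster. With the filter 1 member was tested, Hoxb13, and it was higher, where 22.7% of all genes tested were higher. Without it, 17 of 29 members were higher and 0 lower, against 16.5% of all genes: 4 of 7 in HoxA, 5 of 8 in HoxB, 2 of 6 in HoxC and 6 of 8 in HoxD, or 4 of 6 anterior, 2 of 10 central and 11 of 13 posterior members. Of the 17 calls, 13 remained when each library was left out in turn. Hoxa9, Hoxa10, Hoxa11 and Hoxb3 did not, with adjusted p of up to 0.0666, 0.0687, 0.177 and 0.0529.

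Hoxb13 was the 1 posterior gene with reads in most wild-type ExE libraries (5 of 7; 0, 0.358 and 0.982 CPM as lowest, median and highest). In Eed ExE it was at 2.75, 4.99 and 12.1 CPM, and all 10 libraries lay above the wild type. The mean was 5.62 ± 2.64 against 0.432 ± 0.364 (log2 difference 3.40 ± 0.46 SE, edgeR adjusted p = 8.03e-06). Hoxb7 had 0 wild-type reads and 0.967, 3.26 and 8.40 CPM in Eed ExE (at least 26.9-fold higher, edgeR without the filter, adjusted p = 7.96e-06), and was present in all 10 libraries. Hoxd13 had 0.322, 2.06 and 8.03 CPM against 2 wild-type reads, a ratio of 27.8 (exact 95% interval 7.45 to 233; adjusted p = 0.000447), with 8 of 10 libraries above the wild-type maximum.

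The other calls in Eed ExE rested on fewer reads. Hoxd9 (44 reads), Hoxc10 (39), Hoxd1 (29), Hoxd8 (22), Hoxb9 (21) and Hoxb2 (20) had none in the wild type. Divided by the floor, their means ran from 4.49-fold for Hoxb2 to 10.3-fold for Hoxd9. Hoxd10 and Hoxd11 had the same count in sum (19 each) and were at least 4.55-fold higher. Hoxa3 had 2.15 ± 1.32 CPM against 0.303 ± 0.322 (edgeR without the filter, adjusted p = 0.0128), and its row spans those of Hoxa4, Hoxa5 and Hoxa6. Hoxc13, a gene of hair and nails, had 13 reads in 6 of 10 libraries and Hoxa11, a limb and uterus gene, 11 reads in 4 of 10. Hoxa7 (15 reads against 2, adjusted p = 0.170), Hoxc4 (9 against 1, adjusted p = 0.217) and Hoxb1 (7 against 0, adjusted p = 0.0616) did not pass.

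In the ExE libraries labelled Rnf2, Hoxb7 and Hoxd13 were the members with the most reads. With the filter both were tested and both were higher, where 12.2% of all genes tested were higher. Without it, 12 of 29 members were higher and 0 lower, against 7.41% of all genes: 3 of 8 in HoxA, 2 of 8 in HoxB, 1 of 5 in HoxC and 6 of 8 in HoxD, or 2 of 5 anterior, 3 of 12 central and 7 of 12 posterior members. Thinned to the shallowest library, 9 of 25 were higher. Of the 12 calls, 9 remained when each library was left out in turn, and Hoxa3, Hoxc10 and Hoxa10 did not (adjusted p of up to 0.0753, 0.0702 and 0.104). With only the 2 libraries lowest in Rnf2 mRNA (embryos 4 and 7, an alternative added after seeing the data), Hoxb7 and Hoxd13 were still both higher with the filter, and 7 of 24 members were higher without it.

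Hoxb7 was at 17.0, 10.1, 17.9, 13.2 and 17.4 CPM in Rnf2 ExE of embryos 2, 4, 5, 6 and 7, and had 0 reads in all 7 wild-type libraries. It was at least 102-fold higher than the floor (edgeR adjusted p = 7.86e-06). Hoxd13 was at 9.78, 3.99, 5.95, 9.76 and 10.3 CPM in the same order, against 2 wild-type reads, a ratio of 81.9 (exact 95% interval 22.5 to 680; edgeR adjusted p = 1.32e-05). The library of embryo 4 was the lowest for both, and all 5 lay above the wild type. The summed Hox level of the 5 libraries was 51.8, 24.1, 36.3, 56.7 and 57.2 CPM in that order, so the 2 lowest in Rnf2 mRNA, embryos 4 and 7, had the lowest and the highest Hox sum.

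Hoxd9 followed with 5.20, 1.66, 2.71, 5.61 and 3.57 CPM and 0 wild-type reads (at least 25.3-fold higher, edgeR without the filter, adjusted p = 9.90e-06). Hoxb13 had 3.97, 1.56, 3.79, 3.90 and 7.57 CPM against 0.432 ± 0.364 (log2 difference 3.09 ± 0.60 SE, edgeR without the filter, adjusted p = 0.000455). Hoxa7 had 2.85, 0.779, 3.25, 3.78 and 2.57 CPM against 2 wild-type reads (adjusted p = 0.000405). The signal shared by Hoxd10 and Hoxd11, with 58 and 96 reads, Hoxd1 with 50, Hoxd8 with 32, Hoxa10 with 21 and Hoxc10 with 20 had no wild-type reads, and Hoxa3 had 75 against 6. Hoxb1 had 0 reads in all 5 libraries. Hoxa9 (20 reads), Hoxb2 (18) and Hoxd3 (16), also with none in the wild type, did not pass, with adjusted p of 0.0721 for Hoxb2 and 0.0799 for Hoxd3.

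Markers of other cells moved beside these changes. In ExE, visceral endoderm markers (13 of 14 listed had a row) summed to 215 to 522 CPM in the wild type, 332 to 1468 in Eed and 517 to 879 in Rnf2, with Sox17, Gata6, Foxa2 and Cer1 at 0 in the wild type and Cer1 at 0 in Rnf2. Ectoplacental cone and giant cell markers (8 of 10) summed to 22.2 to 1243, 486 to 5710 and 321 to 2344 CPM, with Prl3d1, Prl3b1 and Ctsq at 0 in all 3 groups. ExE markers summed to 623 to 1191 CPM (median 747) in the wild type, 351 to 682 (473) in Eed and 563 to 1153 (641) in Rnf2. Zic2 was at 0 in the wild type. Extraembryonic mesoderm and allantois markers in ExE summed to 86.2 to 135, 24.6 to 105 and 30.8 to 75.8 CPM, with Col1a1 at 0 in the wild type. Epiblast markers were not higher in knockout ExE (749 to 1262 CPM in the wild type, 499 to 992 in Eed, 664 to 1035 in Rnf2), nor were primitive streak markers (109 to 204, 18.4 to 124 and 36.9 to 133). Of the streak markers, Fgf8 was at 0 in wild-type ExE only, and Msgn1 at 0 in both knockouts only. Eomes is on both the streak and the ExE list, and Bmp4 on both the ExE and the extraembryonic mesoderm list. These sums can therefore follow ExE genes and do not show that streak or mesoderm cells were absent. In epiblast, streak markers (13 of 14) summed to 48.2 to 1605 CPM (median 600) in the wild type, 138 to 676 (213) in Eed and 87.2 to 394 (144) in Rnf2. Extraembryonic mesoderm and allantois markers there (8 of 10) summed to 1.26 to 22.9 CPM (median 4.64), 18.3 to 31.1 (26.7) and 21.3 to 48.7 (24.6). Visceral endoderm markers in epiblast summed to 93.6 to 1268 CPM (median 127) in the wild type, 248 to 482 (343) in Eed and 269 to 692 (364) in Rnf2, with none at 0. Ectoplacental cone and giant cell markers there summed to 9.69 to 34.3 CPM (median 12.7), 13.1 to 70.6 (33.9) and 24.3 to 78.1 (43.8), with Prl3d1 at 0 in the wild type and Rnf2 and Gcm1 at 0 in the wild type and Eed. Decidua and maternal blood markers (6 of 11; Hoxa10 and Hoxa11, also on that list, were not counted in it) summed to at most 0.745 CPM in wild-type ExE, 5.80 in Eed and 0.610 in Rnf2, with Dcn and Col3a1 at 0 in all 3. The part of these cells in the Hox changes was not tested.

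**Figure D3:**
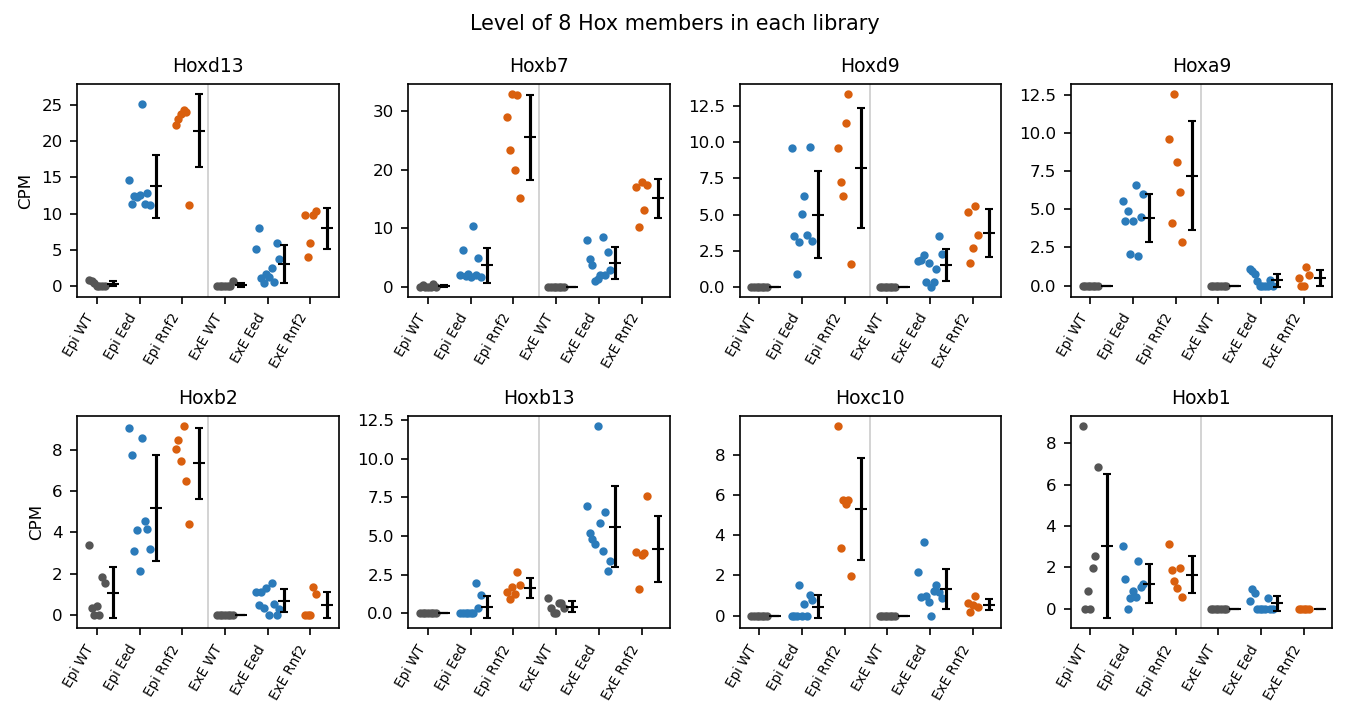
Level of 8 Hox members in each library (CPM, linear axes that differ between panels) in wild-type BDF1xCAST, Eed and Rnf2 libraries of both tissues. Points are libraries, and bars give the mean ± SD. Hoxd13, Hoxb7 and Hoxd9 are high in both knockouts and both tissues, Hoxa9 and Hoxb2 mainly in epiblast, Hoxb13 mainly in ExE, and Hoxb1 is highest in 2 wild-type epiblasts.

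In the libraries labelled Dnmt1 and G9a-Glp no Hox member was higher past the threshold in either tissue, in any alternative that was run. Neither Dnmt1 mRNA in Dnmt1 ExE nor Ehmt1 and Ehmt2 mRNA in G9a-Glp epiblast fell past the threshold, so mRNA levels do not check the knockout in these groups. The summed level was 9.85, 7.88 and 2.68 CPM in the 3 Dnmt1 epiblasts and 0, 0.585 and 2.58 in the ExE of the same embryos, and 1.64 ± 1.64 (SD, n = 6) and 1.35 ± 1.38 (n = 8) in G9a-Glp epiblast and ExE. With the filter, 0 members were higher in edgeR and in DESeq2 in all 4 comparisons, of 1 tested in Dnmt1 epiblast and 0 in the others, where 6.94%, 8.54%, 19.6% and 8.5% of all genes tested were higher in Dnmt1 epiblast, Dnmt1 ExE, G9a-Glp epiblast and G9a-Glp ExE. Without it 0 of 12, 0 of 7, 0 of 12 and 0 of 14 members were higher, against 2.81%, 4.9%, 8.0% and 5.41% of all genes. At an unadjusted p under 0.05 there were 1 member higher in Dnmt1 epiblast, 1 higher in Dnmt1 ExE, 5 lower in G9a-Glp epiblast and 3 higher in G9a-Glp ExE. Without the 2 G9a-Glp epiblasts highest in Ehmt1 mRNA (embryos 2 and 7, an alternative added after seeing the data), 1 member was lower and 0 higher.

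Hoxb1 was at 5.63, 0.876 and 0 CPM in the 3 Dnmt1 epiblasts and at 3.05 and 0.855 CPM in 2 of 6 G9a-Glp epiblasts with 0 in the other 4, all within the wild-type range (edgeR without the filter, adjusted p = 0.776 and 0.106). Hoxd1 was at 0.938, 5.26 and 0.671 CPM in Dnmt1 epiblast (adjusted p = 0.638). At these depths and group sizes small changes of single Hox genes were not detectable.

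The PRC1 and PRC2 knockouts were then compared directly, without the shared wild type. Most Rnf2 libraries were deeper than the Eed ones, and thinning evens out the number of reads only. Any other difference between the 2 sets of libraries cannot be told apart from genotype. In epiblast, Hoxb7 was the clearest difference. With the filter 2 of 9 members tested were lower in Eed, where 3.95% of all genes tested differed in either direction, and without it 5 of 33 were lower, against 2.49% of all genes, these being Hoxb7, Hoxc10, Hoxa7, Hoxa10 and Hoxd8. Thinned to equal depth, 1 of 4 members was lower with the filter and 4 of 28 without it, with Hoxd8 lost. Hoxd8 also lost the call in 12 of 15 repeats that left out 1 library, and the other 4 kept it in all 15. Hoxb7 was at 1.60 to 10.3 CPM in Eed and 15.2 to 32.9 in Rnf2 (log2 difference -2.88 ± 0.35 SE, edgeR adjusted p = 4.77e-05), and the groups did not overlap. Hoxc10 was at 0 to 1.54 and 1.99 to 9.46 CPM (log2 difference -3.62 ± 0.61 SE without the filter, adjusted p = 2.62e-05), again without overlap. Hoxa7 was at 0 to 3.14 and 3.02 to 18.6 CPM (adjusted p = 0.000339) and Hoxa10 at 0 to 3.25 and 0.142 to 10.3 (adjusted p = 0.00222).

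Hoxd13 differed less in epiblast (log2 difference -0.73 ± 0.20 SE, edgeR adjusted p = 0.0478). That call was lost in 30 of 36 alternatives, among them 0.0527 without the filter, 0.168 when thinned and 0.113 without Rnf2 embryo 3. Hoxd9, Hoxa9 and Hoxb2 did not pass, with log2 differences of -0.80 ± 0.41, -0.80 ± 0.34 and -0.62 ± 0.31 (SE; adjusted p = 0.292, 0.183 and 0.270), which does not show that the knockouts act alike on them.

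In ExE, against the libraries labelled Rnf2, 2 of 3 members tested were lower in Eed with the filter, Hoxb7 and Hoxd13, where 14.5% of all genes tested differed, and 3 of 32 without it (also Hoxa7), against 6.49% of all genes. Of these 3, Hoxb7 kept the unfiltered call in all 15 repeats that left out 1 library, Hoxa7 in 13 (adjusted p of up to 0.0774) and Hoxd13 in 12, and thinned to equal depth 2 of 30 remained past the threshold. Hoxb7 had a log2 difference of -2.02 ± 0.37 SE (edgeR adjusted p = 0.00182), and all 10 Eed libraries lay below every Rnf2 library. Hoxd13 had -1.56 ± 0.48 SE (adjusted p = 0.0354), a call lost in 10 of 36 alternatives, each of them leaving out 1 library (up to 0.0922 without Rnf2 embryo 7). Hoxb13 did not pass, with a log2 difference of 0.33 ± 0.36 SE (adjusted p = 0.572). Hoxb13 was at 5.62 ± 2.64 CPM in Eed ExE and 4.16 ± 2.16 in Rnf2 ExE.

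Epiblast and ExE of one genotype were compared next, over embryos of which 7 wild-type, 9 Eed and 3 Rnf2 had both tissues sequenced. The summed Hox level was lower in ExE than in the epiblast of the same embryo in 7 of 7 wild-type BDF1xCAST, 9 of 9 Eed and 3 of 3 Rnf2 embryos. Which tissues belong together is uncertain for Eed embryos 8, 9 and 10: paired by title number, ExE was also lower in 9 of 9 pairs, but the labelled sex of the tissues matched in 7 of 9, and in 9 of 9 by embryo label. In the wild type the filter left 0 members to test, where 56.7% of all genes tested differed in either direction. Without it, 4 of 15 differed, against 34.7% of all genes: Hoxb1, Hoxd1 and Hoxb2 were lower in ExE, where they had 0 reads, and Hoxb13 was higher (9 reads against 0). With the embryo as a block 2 of 15 remained, Hoxb1 and Hoxd1, and leaving out 1 embryo ended the call of Hoxb13 in 6 of 7 repeats and that of Hoxb2 in 1.

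In Eed embryos the share of members that differed between the tissues was near that of all genes. Hoxd13 and Hoxa9 were among those lower in ExE, and Hoxb13 was higher there. With the filter 1 member was tested, Hoxd13, and it was lower in ExE (log2 difference -2.18 ± 0.39 SE, edgeR adjusted p = 3.70e-05), where 55.7% of all genes tested differed. Without it, 11 of 30 members differed, 8 lower and 3 higher, against 35.5% of all genes in either direction. Those lower were Hoxa9, Hoxd13, Hoxb2, Hoxd11, Hoxd10, Hoxd3, Hoxd9 and Hoxb1, with log2 differences from -3.55 ± 0.58 (Hoxa9) to -1.60 ± 0.47 (Hoxd9). Those higher were Hoxb13 (3.61 ± 0.57, adjusted p = 2.00e-06), Hoxa4 and Hoxb4, the last 2 on 6 and 5 reads. With the embryo as a block, 7 were lower and 1 higher, by embryo label and by title number alike, and Hoxb1, Hoxa4 and Hoxb4 were lost. These 3 were also lost when some single embryos were left out. Hoxb7 was at 3.62 ± 3.01 CPM in Eed epiblast and 3.98 ± 2.70 in Eed ExE (adjusted p = 0.712).

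In embryos labelled Rnf2, Hoxb2, Hoxa9 and Hoxd13 were among the members lower in ExE. With the filter 15 members were tested, 11 were lower in ExE and Hoxb13 was higher (log2 difference 1.42 ± 0.44 SE, edgeR adjusted p = 0.0136), where 50.5% of all genes tested differed. Without it, 13 of 33 were lower and 1 higher, against 27.9% of all genes. The changes furthest from 0 among members tested with the filter were those of Hoxb2 (-3.77 ± 0.71), Hoxa9 (-3.63 ± 0.65), Hoxd3 (-3.42 ± 0.75), Hoxc10 (-3.18 ± 0.51) and Hoxa10 (-3.16 ± 0.85). Hoxb1 and Hoxc4, called without the filter and in all 8 repeats that left out 1 embryo, had 107 and 59 reads in Rnf2 epiblast and 0 in ExE. Hoxd13 fell by less (-1.34 ± 0.27, adjusted p = 0.000906), and Hoxb7 by least among the calls (-0.70 ± 0.23, adjusted p = 0.0204). With the embryo as a block, over the 3 pairs alone and leaving out the 5 unpaired libraries, 8 of 33 members differed without the filter, and with it 7 of 15 were lower and 0 higher: Hoxb2, Hoxd13, Hoxd3, Hoxa9, Hoxc10, Hoxd1 and Hoxa10 kept the call, and Hoxb13 (adjusted p = 0.128), Hoxb7 (0.174), Hoxa7 (0.114), Hoxd8 (0.0623) and Hoxd10 (0.0687) lost it. Leaving out 1 embryo ended the calls of Hoxb13 (up to 0.0742, without embryo 7), Hoxb7 (0.0722, without embryo 6) and Hoxd1 (up to 0.116, without embryo 5).

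**Figure D4:**
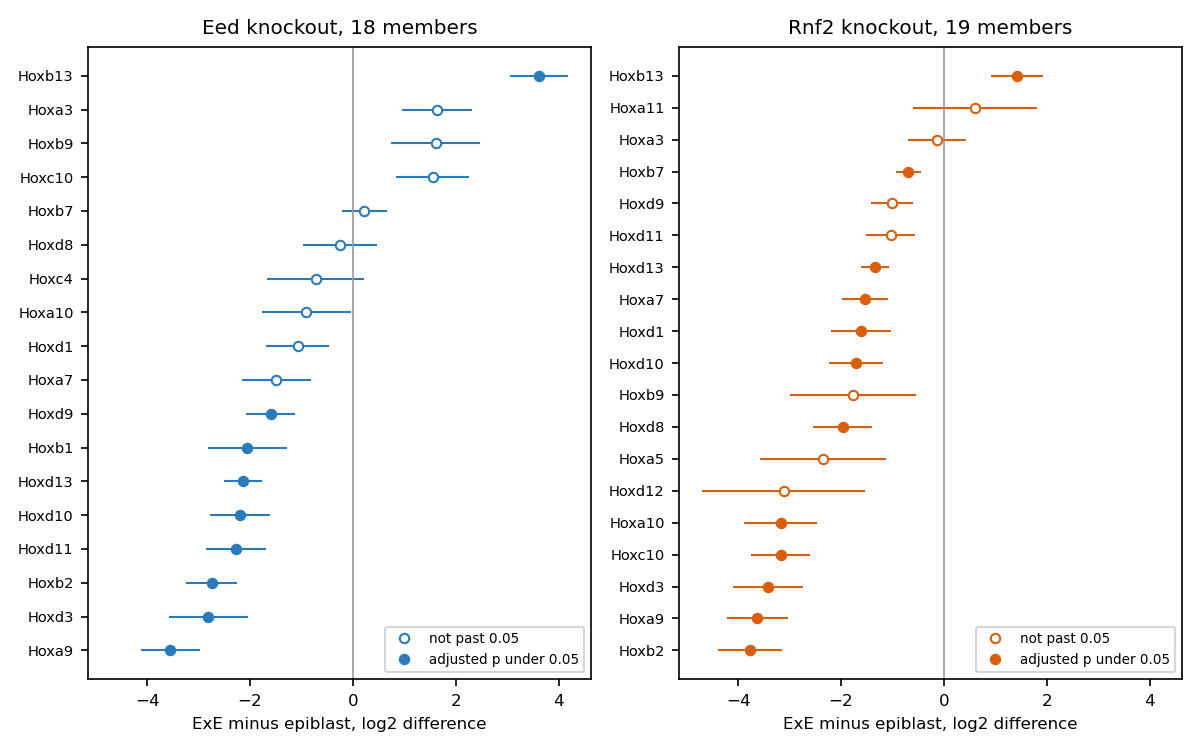
Difference between ExE and epiblast on the log2 scale, from edgeR without the filter, for the members with at least 20 reads and reads in both tissues, in the Eed knockout (left) and the Rnf2 knockout (right). Bars give the SE, and filled points passed the adjusted threshold of 0.05. Most members lie left of 0, that is lower in ExE, and Hoxb13 lies right of it in both knockouts, at 3.61 in Eed and 1.42 in Rnf2.

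Whether a knockout's effect itself differed between the tissues was tested as an interaction. No member passed. For Eed 0 of 4 members passed with the filter, where 15.9% of all genes tested did, and 0 of 30 without it, against 7.98%. For Rnf2 the counts were 0 of 10, against 6.82% of all genes, and 0 of 33, against 2.76%. Without the filter, 0.0649 for Hoxd1 and 0.0712 for Hoxb1 were the smallest adjusted p for Eed, and 0.125 for Hoxc4 was the smallest for Rnf2. Wild-type ExE had 21 Hox reads over its 7 libraries, which limits this test. Many members had 0 reads in the wild type of both tissues, so their interaction has no usable estimate. Without the filter the SE for Hoxa9 was 5352 in Eed and 8797 in Rnf2, and for Hoxd9 it was 5453 and 2460. Such members could not pass whatever their change. The counts of 0 are therefore not to be read against the shares of all genes. They do not show that a knockout acts alike in both tissues.

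Reads of both parental alleles were found for the Hox genes of the knockouts. The BDF1 allele gave 61.6% of Hox reads in Eed epiblast, 58.3% in Rnf2 epiblast, 57.3% in Eed ExE and 54.7% in Rnf2 ExE, where it gave 57.2%, 57.7%, 56.8% and 57.0% of all autosomal reads (means over libraries). Members with at least 20 reads ranged from 23.5% to 79.3% BDF1 in Rnf2 epiblast (19 members, median 56.9%), from 6.00% to 71.4% in Rnf2 ExE (13, median 55.1%), from 24.5% to 73.2% in Eed epiblast (12, median 62.8%) and from 27.3% to 75.8% in Eed ExE (10, median 52.4%). The allele term was tested within each group against the library sizes of the 2 alleles, for autosomal genes that reached 10 reads in 3 libraries or more. Of the members tested, 1 of 17 had unequal alleles in Rnf2 epiblast, 1 of 9 in Rnf2 ExE, 0 of 5 in Eed epiblast and 0 of 4 in Eed ExE, where 26.6%, 37.2%, 39.5% and 41.1% of all autosomal genes tested did. At a minimum of 50 reads in 3 libraries, only 7, 2, 0 and 0 members could be tested in that order. Most members thus had few reads per library, which limits the test. The low counts do not show that Hox alleles were more equal than those of other genes. At an unadjusted p under 0.05, 0 members in Eed epiblast and 1 in Eed ExE passed, the latter Hoxa3 (75.8% BDF1, adjusted p = 0.0829).

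Hoxa9 was the member called in Rnf2 epiblast. Its BDF1 share was 72.0% of 429 reads (exact 95% interval 67.5 to 76.2), and the libraries of embryos 1, 2, 3, 5, 6 and 8 gave 65.1%, 67.5%, 75.5%, 76.6%, 82.4% and 90.0%, all above the autosomal share (edgeR adjusted p = 0.0311). The call was lost without embryo 3, 5 or 6 (adjusted p = 0.0827, 0.0762 and 0.0571). Hoxd1 was the member called in Rnf2 ExE, with 3 of 50 reads from BDF1, or 6.00% (1.25 to 16.5; adjusted p = 0.00272). Its 3 libraries with at least 10 reads gave 7.69%, 0% and 11.8% for embryos 2, 4 and 7, so leaving out any of these left too few libraries to test it. In the other 3 groups the BDF1 share of Hoxd1 was 35.7% of 255 reads in Rnf2 epiblast (adjusted p = 0.140), 24.5% of 49 in Eed epiblast and 31.0% of 29 in Eed ExE. The lowest share in Rnf2 epiblast was that of Hoxa5 (23.5%), and in Eed ExE that of Hoxd8 (27.3%). For these shares, strain and parent of origin cannot be told apart.

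Other members varied between embryos. Hoxd9 had BDF1 shares of 62.4%, 56.3%, 51.0%, 37.8%, 29.7% and 0% in the Rnf2 epiblasts of embryos 1, 2, 3, 5, 6 and 8, and Hoxb2 of 22.6% to 97.3%. Hoxb7 and Hoxd13, with 1453 and 1218 reads there, had 61% (58.5 to 63.6) and 56.9% (54.1 to 59.7) BDF1 and did not pass the test (adjusted p = 0.334 and 0.971). The intervals cover counting error only, since reads of amplified cDNA are not independent molecules.

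**Figure D5:**
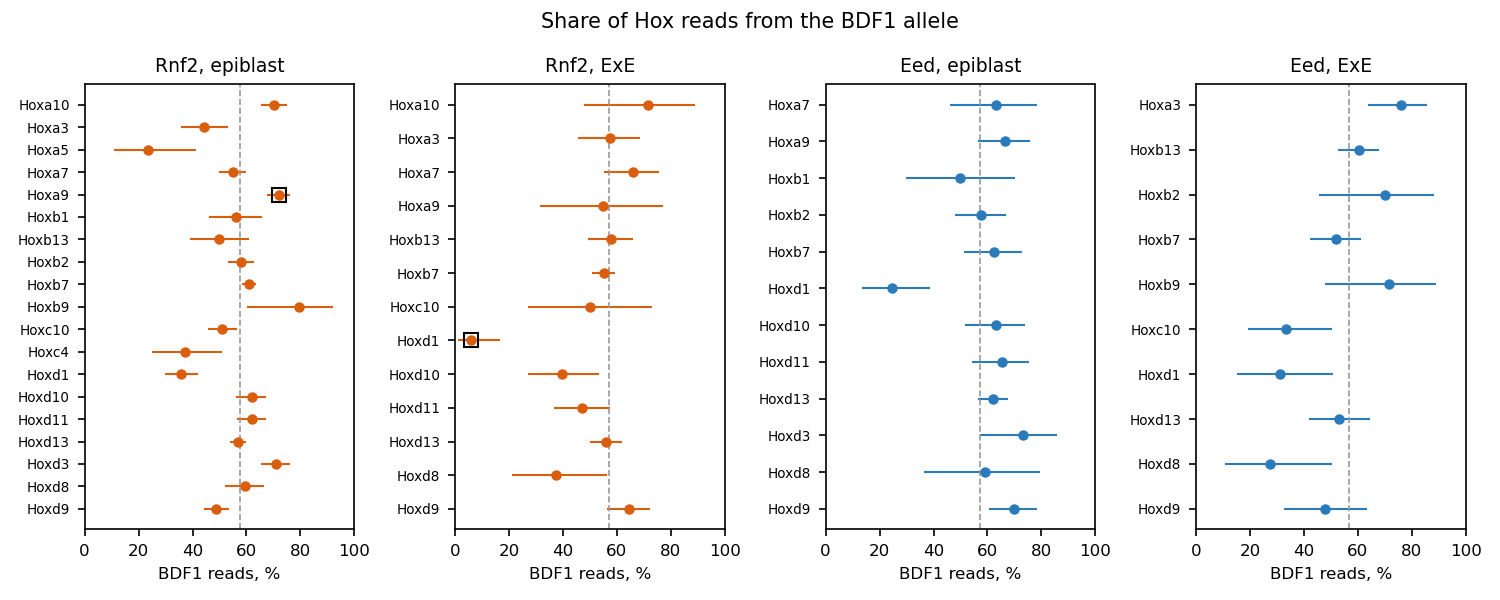
Share of reads from the BDF1 allele (percent, with exact 95% intervals) for each Hox member with at least 20 reads in the group, in Rnf2 epiblast, Rnf2 ExE, Eed epiblast and Eed ExE. The dashed line is the median share of all autosomal reads in the group's libraries, and a square marks a member past the adjusted threshold of 0.05. Squares mark Hoxa9 at 72.0% and Hoxd1 at 6.00%. The other members spread to both sides of the line, from 23.5% to 79.3% in Rnf2 epiblast and from 27.3% to 75.8% in Eed ExE.

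Some noncoding genes inside the clusters rose as well. Of 10 listed with a row, 3 of 8 tested without the filter were higher and 1 lower in Eed epiblast, 3 and 0 of 8 in Eed ExE, 4 and 0 of 9 in Rnf2 epiblast and 2 and 0 of 7 in Rnf2 ExE, where 8.22%, 16.5%, 7.38% and 7.41% of all genes were higher. Among the listed genes, Haglr, which lies in HoxD, was the 1 tested with the filter in epiblast, and it was higher in both knockouts (8.88 CPM in Eed and 16.1 in Rnf2 against 1.15 in the wild type; edgeR adjusted p = 0.000163 and 1.17e-05). Of 13 rows inside the clusters that were on no list, 5 of 12 tested were higher in Eed epiblast, 4 of 13 in Eed ExE, 5 of 13 in Rnf2 epiblast and 2 of 9 in Rnf2 ExE, and 0 were lower, and those named here were chosen after their values were seen. Gm38462, which overlaps Hoxd3 and Hoxd8, was at 2.78 and 6.49 CPM against 0.0565, Gm11538 at 6.20 and 13.4 against 0.377, and Mira at 1.30 and 3.93 against 0 (all in epiblast and past the threshold without the filter). In ExE, Gm11538 had 8 reads in Eed and none in the wild type or Rnf2. Evx1os, just outside HoxA, had 8.49 and 12.4 CPM against 11.6 and did not pass (adjusted p = 0.353 and 0.927 with the filter). The antisense and overlapping rows share reads with their Hox neighbours, so they are not separate evidence.

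Genes that border the clusters did not move one way. Of the 24 with a row, 3 of 17 tested were higher and 4 lower in Eed epiblast, 4 and 3 of 16 in Eed ExE, 3 and 6 of 18 in Rnf2 epiblast and, last, 3 and 3 of 16 in Rnf2 ExE. Of all genes tested, 19.2%, 22.7%, 18.0% and 12.2% were higher and 16.5%, 18.1%, 13.0% and 9.99% lower in the same order, which is the background for the counts of each list. The median log2 change was -0.08, 0.01, -0.18 and -0.20, beside 0.01, 0.02, 0.00 and -0.03 over all genes tested. Cbx1, which borders HoxB and encodes a heterochromatin protein, fell in Eed epiblast (200 against 374 CPM; log2 difference -1.05 ± 0.13 SE, adjusted p = 1.38e-05).

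Hox proteins bind DNA with PBC and Meis-class partners, and of the 8 such genes with a row 1 of 4 tested was higher and 1 lower in Eed epiblast, 2 and 0 of 3 in Eed ExE, 1 and 2 of 4 in Rnf2 epiblast and 0 and 1 of 3 in Rnf2 ExE. Their median log2 changes were -0.06, 0.40, -0.47 and 0.04 in that order. Pknox1 rose in both epiblasts (31.2 CPM in Eed and 26.5 in Rnf2 against 16.3; adjusted p = 0.00246 and 0.0171). Of the Cdx and other posterior regulators (15 with a row, 5 tested in each comparison), 0 rose in any, and 3, 3, 1 and 3 fell in Eed epiblast, Eed ExE, Rnf2 epiblast and Rnf2 ExE, with median log2 changes of -1.19, -0.99, -0.80 and -0.50. These counts rest on 5 genes per comparison. Cyp26a1, which degrades retinoic acid, an inducer of Hox genes, fell from 115 to 16.4 CPM in Eed epiblast and from 255 to 53.2 in Eed ExE (adjusted p = 0.00430 and 0.000265). Egr2, a hindbrain regulator of Hoxb2, fell in all 4 comparisons, from 137 to 95.1 CPM in Eed epiblast and to 80.6 in Rnf2 epiblast, and from 59.7 to 43.8 and 43.9 in Eed and Rnf2 ExE.

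Homeobox genes outside the clusters (26 with a row) could be tested for 5, 4, 5 and 4 genes in the same order, and 2, 2, 1 and 1 rose with 0 falling (median log2 change 0.21, 0.76, 0.22 and 1.01). Six2, a kidney progenitor gene, rose in ExE from 1.21 to 14.4 and 21.5 CPM (adjusted p = 3.32e-06 and 1.35e-05). Of PRC1 genes, 5 rose and 2 fell of 13 tested in Eed epiblast and 5 and 2 of 14 in Rnf2 epiblast, with Bmi1 (12.6 and 13.8 CPM against 3.51) higher in both. In ExE 4 rose and 2 fell of 16 in Eed and 3 and 0 of 16 in Rnf2, and the PRC1 median log2 change was 0.06 in Eed epiblast, 0.26 in Eed ExE, 0.26 in Rnf2 epiblast and 0.10 in Rnf2 ExE. Of PRC2 genes, 1 rose and 4 fell of 9 in Eed epiblast, 2 and 4 of 10 in Eed ExE, 1 and 2 of 9 in Rnf2 epiblast and 0 and 3 of 10 in Rnf2 ExE (median log2 change -0.38, -0.25, -0.31 and -0.06), the targeted Eed being among those that fell in the Eed groups. Of the 7 trithorax and demethylase genes tested, 1 rose in Rnf2 epiblast and 0 in the other groups, with 0 falling.

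The remaining members had few reads. Hoxa4, Hoxa5, Hoxa11, Hoxb3, Hoxc8, Hoxc9, Hoxc13 and Hoxd12 had 25, 43, 39, 33, 31, 28, 23 and 38 reads over the 72 libraries, and Hoxa6, Hoxb4, Hoxb5, Hoxb6, Hoxb8, Hoxc5 and Hoxc6 had 17, 12, 1, 4, 16, 6 and 7. Hoxc9 had the same count as the overlapping row of Gm36878 in every library with reads, so the pair is 1 signal. With 8 members under 20 reads, Hoxd4 included, and with 0.358 to 1.79 CPM of Hox reads in wild-type ExE as a whole, a small change in these genes was not detectable at this depth.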

How the data were processed

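RNA of single embryos was read as SMART-Seq v4 libraries, which keep no strand, on an Illumina paired-end platform, per the labels' protocols. STAR 2.5.0, HTSeq and the mm10 build are named in the submitters' processing notes. The deposited table gives, per RefSeq gene and library, the count of reads over BDF1/CAST polymorphisms, made by the authors before deposit. Per the file headers it also gives an allelic ratio (the CAST share centred on 0) and a signed allelic score from a binomial test, set to 0 under 10 reads. An empty cell was read as 0 reads. Allele reads were recovered from the count and the deposited ratio, and 711982 of 714983 scored values were matched within 0.001.

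Counts were tested with edgeR 4.0.16 (TMM scaling, its filter on low counts, quasi-likelihood fit) in R 4.3.3, over all genes, with Benjamini-Hochberg adjustment at 0.05. Only the groups compared entered a fit. Alleles were tested with 1 term per library and each allele's own library size. The scripts were tested on simulated data. Alternatives were no filter, other size factors, DESeq2 1.42.0, embryo sex, thinning, the replicate block and leaving out libraries. Figures used matplotlib 3.10.9.

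The members and gene lists were chosen with earlier results of these data known. Members given with values were up to 12 past the threshold with the smallest adjusted p and up to 3 tested members not past it with the most knockout reads, and lists name up to 3 genes by adjusted p. Some list genes are not reported here by name. Embryo labels pair the tissues of 1 animal, with the doubt given for Eed, but not embryos of different genotypes. No 2 replicate libraries were alike within counting noise (smallest chi-square per degree of freedom 3.246). A bisulfite library, 1 further sample, was not analysed here.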

Additional observations from a re-analysis of the deposited data

Results flagged for a closer look

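In 63 groups of 4 to 10 libraries, a library stood apart from the others by Dixon's criterion in 9 (14.29%). The criterion gives about 1 in 20 for independent normal values. Most of the 63 are sparse counts of members already called, and they are not independent, so the share does not show an excess. In Eed epiblast, embryo 6 was highest for Hoxd13 (25.1 CPM), and embryo 9 was highest for Hoxd10 (8.99) and Hoxd11 (9.68), which share one signal. In Rnf2 epiblast, embryo 6 was highest for Hoxa7 (18.6) and embryo 8 lowest for Hoxd13 (11.2). In Eed ExE, embryo 5 was highest for Hoxb13 (12.1), embryo 9 for Hoxa11 (3.15) and embryo 1 for Hoxd1 (2.91). In G9a-Glp epiblast, embryo 2 had the highest summed Hox level (4.89).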

How the results depend on the processing

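Of 27 results for single members, under 701 alternatives, 630 kept their direction and call, 71 lost the call and 0 reversed. Of 387 alternatives for 19 counts, 237 stayed within 1.5 times and 150 did not, and the cause was not tested except where fewer genes or samples entered. Without the filter, the counts higher than the wild type were 15 (Rnf2 epiblast), 12 (Rnf2 ExE), 9 (Eed epiblast) and 17 (Eed ExE), those different between Eed and Rnf2 epiblast 5, and those different between tissues 4 (wild type) and 11 (Eed). Thinned as well, they were 13, 9 and, between Eed and Rnf2 epiblast, 4, and thinned with the filter the last was 1. In Rnf2 ExE without embryos 2, 5 and 6 the unfiltered count was 7. With equal library sizes for both alleles, 3 (Rnf2 epiblast), 2 (Eed epiblast) and 1 (Eed ExE) members had unequal alleles, and at a minimum of 50 reads 0 in Rnf2 ExE.

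With the replicate block, 7 members were higher in Rnf2 epiblast and 1 in Eed epiblast, though embryo numbers do not pair genotypes. Deviations of same-numbered libraries did not all correlate, either across genotypes or across tissues. The pairing of tissues therefore rests on the labels. For tissues, which the labels pair, 7 members differed in Rnf2 with the block. With the block and no filter, 8 differed in Rnf2, 2 in the wild type and 8 in Eed. The last was also 8 with Eed paired by title number, an alternative added after seeing the data. Leaving out 1 library gave filtered and unfiltered counts of 3 to 7 and 13 to 17 (Rnf2 epiblast), 2 to 3 and 10 to 14 (Rnf2 ExE), 1 to 3 and 9 to 12 (Eed epiblast), and 1 and 13 to 17 (Eed ExE). Between Eed and Rnf2 they were 1 to 3 and 4 to 6 in epiblast and 1 to 3 and 1 to 5 in ExE. Between tissues they were 0 and 2 to 4 (wild type), 1 to 2 and 8 to 11 (Eed), and 10 to 14 and 11 to 17 (Rnf2). For alleles they were 0 to 1 in both Rnf2 tissues and 0 in both Eed tissues.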

Other observations

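In CASTxBDF1 wild-type ExE, which entered no test, Hoxb13 had reads in all 4 libraries, at 0.596, 1.07, 0.850 and 0.549 CPM, and it was the 1 member with reads in every library of that group. At an equal depth of 1141414 reads, the expected number of members with a read was 1.63 to 7.79 per library in wild-type epiblast, 11.6 to 15.3 in Eed and 15.6 to 20.5 in Rnf2. In ExE it was 0.409 to 1.87 in the wild type, 3.47 to 19.1 in Eed and 7.70 to 15.8 in the libraries labelled Rnf2. The ranges of the 2 knockouts did not meet in epiblast and overlapped in ExE.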
